A study of Mus musculus with 31 samples.

Results

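The 10 genes described here mark endothelium, the cells that line blood vessels: Pecam1, Cdh5, Kdr, Flt1, Tie1, Tek, Emcn, Vwf, Eng and Cldn5. They were chosen by symbol, all 10 were found among the 39017 genes of the deposited count table, and all 10 passed the filter on low counts in every fit. The study sequenced polyadenylated RNA of mouse breast tumours, implanted orthotopically into syngeneic hosts, as 31 libraries. There were 2 models, titled 4T1 and MT, and in each the arms were poly I:C with phenformin (called the combination), phenformin with saline, poly I:C with PBS (called poly I:C), and saline with PBS (called control). Each arm had 4 libraries, except 4T1 phenformin with 3. Phenformin belongs to the biguanides and blocks mitochondrial complex I. Poly I:C is a double-stranded RNA analogue made synthetically and sensed by Toll-like receptor 3. All samples are labelled WT, and dose, age and treatment time are not given in the sources used here. The labels describe RNA from pelleted cells or from frozen tissue without saying which library came from which, and nothing in them says that the replicates of a group came from separate animals. The p-values therefore measure the spread between these libraries.

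The endothelium forms the inner wall of vessels. VEGF, a growth factor released by hypoxic and tumour cells, signals through Kdr, the main signalling receptor, and is held back by Flt1, which binds VEGF with high affinity and acts in part as a decoy. Tek and Tie1 form the angiopoietin receptor system that keeps vessels quiescent, Cdh5 and Cldn5 build adherens and tight junctions, Pecam1 is a junctional adhesion molecule, Eng is a co-receptor for BMP9 and TGF-beta ligands, Emcn is a sialomucin of capillaries and veins, and Vwf is the clotting glycoprotein stored by endothelial cells and platelets. Several members are not limited to endothelium: Pecam1 is also carried by platelets and many leukocytes, and Eng by some macrophages and stromal cells.

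Library totals ranged from 12160110 to 19849915 counts, and the lowest count of any member in any library was 16. For every library the title names 1 model and the tags for strain and cell line name the other, and the groups here follow the titles. H2-Ea-ps, a gene that only some MHC haplotypes transcribe, lay between 222 and 1011 CPM under the 4T1 titles and between 5.42 and 50.9 CPM under the MT titles. Expression is given as CPM, the usual library-size unit, here after TMM scaling. The epithelial keratin Krt8 was present in all libraries, at 358 to 766 CPM in 4T1 and 81.5 to 403 CPM in MT. Within MT, 6 libraries had Sox10, a neural crest transcription factor, above 10 CPM: control replicates 1, 2 and 3 and phenformin replicates 1, 2 and 3. The other MT libraries, which include every poly I:C and combination library and control replicate 4, had Sox10 at 0.671 to 3.06 CPM and Krt5, a basal keratin, at 330 to 2452 CPM. Of the 6 Sox10-high libraries, 5 had Sox10 at 173 to 218 CPM and Krt5 at 21.4 to 37.5 CPM, whereas phenformin replicate 3 lay between the states, with Sox10 at 33.5 CPM and Krt5 at 1611 CPM. For the members, MT comparisons in which any was called are therefore given with and without the Sox10-high libraries. In bulk tissue, fewer endothelial cells and less RNA per cell cannot be told apart.

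Coordinates of the members are from the GENCODE M21 annotation of GRCm38. Kdr (ENSMUSG00000062960) spans chr5:75932827-75978458 and Flt1 (ENSMUSG00000029648) chr5:147561604-147726011, both on the minus strand. Tie1 and Tek both lie on chromosome 4, at chr4:118471191-118490061 (minus) and chr4:94739289-94874976 (plus). Cdh5 spans chr8:104101625-104144511 (plus), Cldn5 chr16:18776847-18778262 (plus), Pecam1 chr11:106654217-106750628 (minus), Emcn chr3:137341067-137432185 (plus), Vwf chr6:125546774-125686679 (plus) and Eng chr2:32646595-32682669 (plus). An annotated exon of Fpgs on the opposite strand overlaps Eng, and since the strand setting of the counting is not given in the sources used here, reads from that overlap may be shared between them.

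Promoter sequences were available from RefSeq (GRCm38.p6) for 7 of the 10 members. Those of the VEGF receptors Kdr and Flt1 are shown because these genes of related function behaved differently in MT tumours, and that of Eng because it had the smallest p of the members in the control and poly I:C comparisons below. Each is the stretch just upstream of the start site, 5′ to 3′ on the strand of the gene, with annotated exon bases left out: Kdr chr5:75978459-75978705 (minus), Flt1 chr5:147726012-147726261 (minus) and Eng chr2:32646345-32646594 (plus). Capitals mark GGAA and its reverse complement TTCC, the core bound by ETS factors such as Erg and Fli1, which are known regulators of endothelial genes.

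Kdr: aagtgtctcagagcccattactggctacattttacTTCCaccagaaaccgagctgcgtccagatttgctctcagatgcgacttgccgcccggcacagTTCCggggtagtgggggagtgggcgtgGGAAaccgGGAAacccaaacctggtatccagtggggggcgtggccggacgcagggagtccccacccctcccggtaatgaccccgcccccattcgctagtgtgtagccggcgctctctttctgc

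Flt1: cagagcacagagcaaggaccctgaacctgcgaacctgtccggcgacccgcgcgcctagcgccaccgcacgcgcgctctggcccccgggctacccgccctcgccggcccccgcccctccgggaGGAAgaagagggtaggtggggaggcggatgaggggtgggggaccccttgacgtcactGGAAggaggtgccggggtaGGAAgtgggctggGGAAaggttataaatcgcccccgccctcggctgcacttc

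Eng: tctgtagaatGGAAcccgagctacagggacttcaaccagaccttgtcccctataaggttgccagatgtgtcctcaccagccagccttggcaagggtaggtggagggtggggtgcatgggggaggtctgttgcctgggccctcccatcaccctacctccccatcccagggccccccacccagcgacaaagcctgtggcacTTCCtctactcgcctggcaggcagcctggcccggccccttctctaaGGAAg

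The ETS core occurred 4 times in the 250 bases before the Kdr start, 4 times for Flt1 and 3 times for Eng, counting both strands. Of 32851 RefSeq promoters, 93.4% held at least 1 match in the same window, with a median of 3, so the counts are near the background. The longer form AGGAAG, whose matches overlap the ETS core, occurred 2 times each in the Flt1 and Eng windows and 0 times in Kdr, against 29.5% of all promoters with a match. Flt1 alone of the 7 had TATAAA, which ends 25 bases before the start and was present in 12.4% of promoters, and TGACGTCA, the cyclic AMP response sequence, which ends 73 bases before the start and was present in 1.55%. ACGTG, the hypoxia response core, was found in none of the 7, against 16.6% of promoters. These are matches of letters, with no measurement of binding.

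Among the members, levels per kilobase of exon differed widely. The highest in 4T1 were Eng at 31.6, Cdh5 at 26.4 and Pecam1 at 23.4 CPM per kb, and the highest in MT were Pecam1 at 17.7, Cdh5 at 12.04 and Eng at 10.2 CPM per kb. Vwf was lowest in both, at 0.500 CPM per kb in 4T1 and 0.554 CPM per kb in MT. The summed CPM of the 10 genes was highest in 4T1 poly I:C (684 ± 76.6, SD, n = 4), followed by 4T1 control (649 ± 80.7, n = 4), 4T1 combination (639 ± 165, n = 4), 4T1 phenformin (533 ± 50.6, n = 3), MT poly I:C (525 ± 80.4, n = 4), MT combination (409 ± 71.5, n = 4), MT phenformin (402 ± 108, n = 4) and MT control (258 ± 52.8, n = 4). Every pair of neighbours in that order overlapped in its libraries. The ends of the order did not: the MT controls reached at most 308 CPM and the lowest library of 4T1 poly I:C had 609 CPM.

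**Figure D1:**
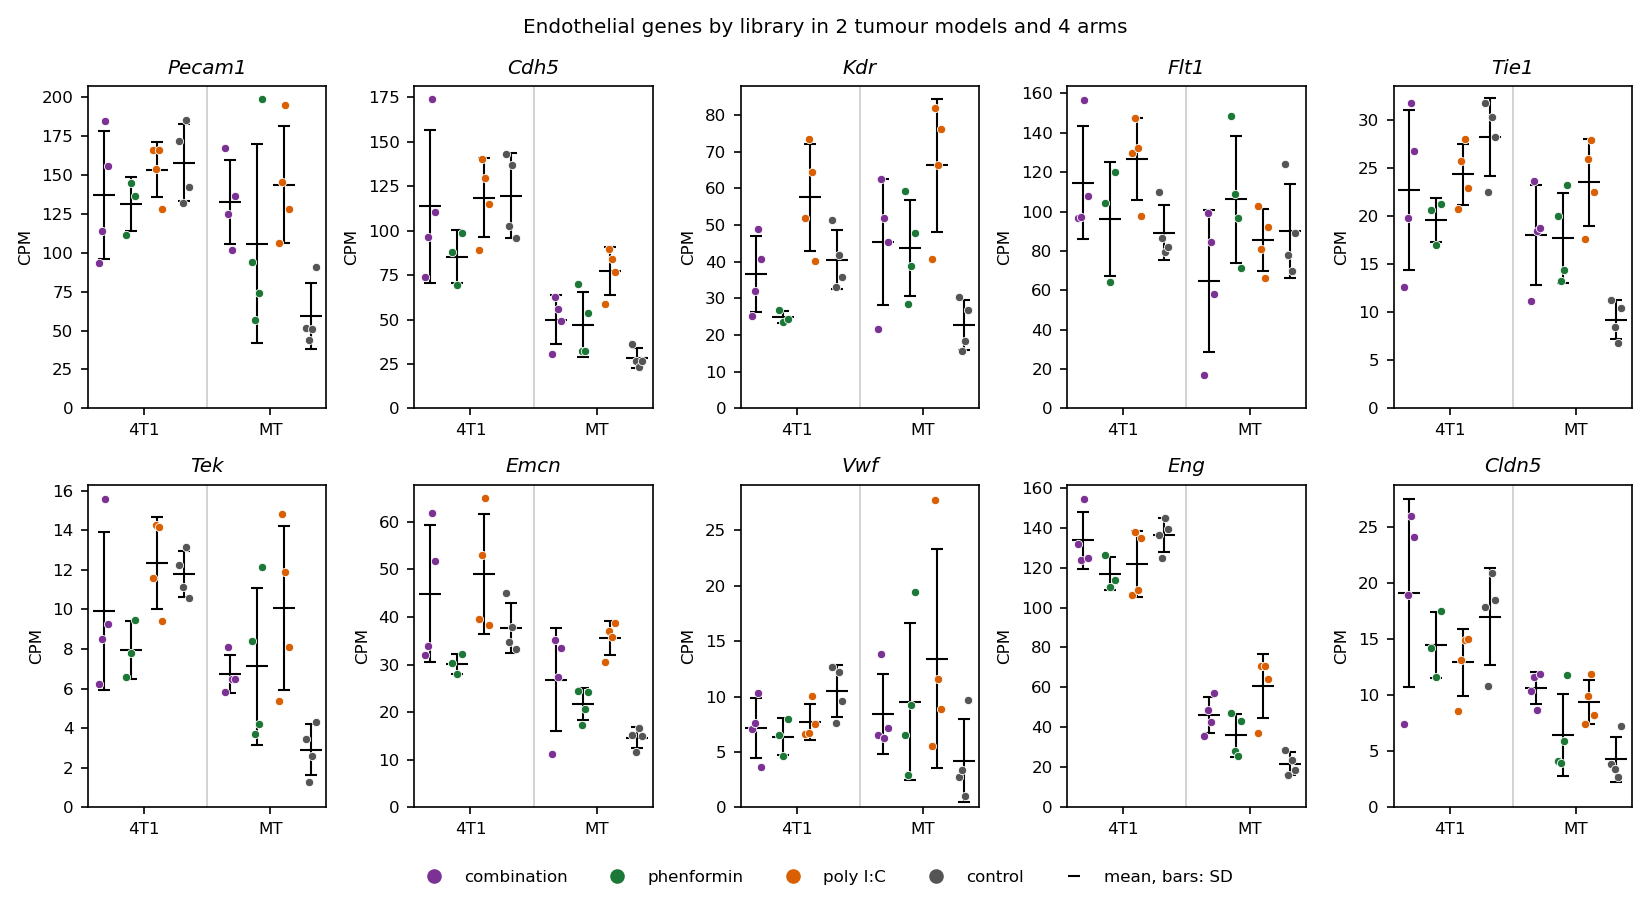
CPM of each endothelial gene (vertical axis, linear, from 0) in every library of the 4T1 and MT models, with the combination, phenformin, poly I:C and control arms from left to right; points are libraries, dashes group means and bars the SD. In MT the control points lie below all poly I:C points for 8 genes, whereas Flt1 and Vwf overlap and the 4T1 arms overlap for every gene between poly I:C and control.

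In MT tumours, 8 of the 10 endothelial genes were higher with poly I:C than in controls, by 2.22- to 3.50-fold. The junction genes Cdh5, Cldn5 and Pecam1, the receptors Kdr, Tie1, Tek and Eng, and the sialomucin Emcn rose, Vwf did not pass the test and Flt1 was near 0 change. edgeR's quasi-likelihood test with Benjamini-Hochberg adjustment over 17857 genes called 8.52% of all genes higher in this comparison. DESeq2 called 9 members and 12.2% of all genes higher, and limma voom 9 members and 30.5% of all genes. The groups did not overlap, with poly I:C higher, for 8 members and for 12.2% of all genes. The median log2 change of the members was 1.42, against 0.01 over all genes.

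Of the VEGF receptors, Kdr measured 40.6, 81.8, 66.4 and 76.1 CPM in the MT poly I:C libraries, against 30.2, 15.7, 18.3 and 26.8 CPM in the MT controls. All poly I:C libraries lay above all controls, and the log2 fold change was 1.56 ± 0.33 (SE; adjusted p = 0.00743). Flt1 measured 103, 80.9, 66.4 and 92.0 CPM in the MT poly I:C libraries, against 124, 77.7, 69.7 and 89.0 CPM in the MT controls. The Flt1 groups overlapped through most of their range, with a log2 fold change of -0.06 ± 0.39 (adjusted p = 0.925).

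The members Eng, Tie1 and Tek, receptors of the BMP9 and angiopoietin pathways, were all higher. Eng measured 37.1, 70.6, 70.9 and 64.4 CPM in MT poly I:C, against 28.8, 16.4, 23.8 and 18.8 CPM in MT control, a log2 fold change of 1.48 ± 0.26 (adjusted p = 0.00319). Tie1, the orphan partner of Tek, measured 17.7, 25.98, 28.0 and 22.6 CPM in MT poly I:C, against 11.3, 8.45, 6.76 and 10.5 CPM in MT control (1.36 ± 0.26, adjusted p = 0.00426). Tek, the angiopoietin receptor, measured 5.40, 14.8, 11.9 and 8.11 CPM in MT poly I:C, against 3.45, 1.28, 2.61 and 4.31 CPM in MT control (1.81 ± 0.44, adjusted p = 0.0130). In all 3 the libraries did not overlap, and poly I:C replicate 1 was the lowest of its group.

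Cdh5, or VE-cadherin, had 58.7, 89.8, 83.9 and 76.5 CPM in MT poly I:C, against 36.2, 26.7, 23.2 and 26.9 CPM in MT control, a log2 fold change of 1.47 ± 0.27 (adjusted p = 0.00397). Emcn had 30.5, 37.0, 35.8 and 38.7 CPM in MT poly I:C, against 15.2, 11.6, 16.7 and 15.1 CPM in MT control (1.29 ± 0.27, adjusted p = 0.00653). Neither gene had overlapping groups. Cldn5, the endothelial tight junction claudin, had 7.43, 9.99, 11.9 and 8.28 CPM in MT poly I:C, against 3.88, 3.43, 2.68 and 7.24 CPM in MT control (1.15 ± 0.37, adjusted p = 0.0406). Pecam1 had 106, 145, 195 and 128 CPM in MT poly I:C, against 51.9, 44.2, 50.9 and 90.8 CPM in MT control (1.29 ± 0.36, adjusted p = 0.0225). For Cldn5 and Pecam1, control replicate 4 was well above the other controls and just below the lowest poly I:C library. Vwf had 5.53, 27.7, 11.6 and 8.85 CPM in MT poly I:C, against 2.76, 3.35, 1.07 and 9.68 CPM in MT control. Its groups overlapped, and the log2 fold change of 1.70 ± 0.69 did not pass (adjusted p = 0.0930).

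The calls for Eng, Cdh5, Tie1, Emcn, Kdr and Tek held when any 1 of the 16 MT libraries was left out. The Pecam1 call was lost without control replicate 1, 2 or 3 or poly I:C replicate 2 or 3 (adjusted p up to 0.0783), and the Cldn5 call without 8 of the libraries, namely combination 2 and 4, control 1, 2 and 3 and poly I:C 2, 3 and 4 (adjusted p up to 0.119). Leaving out the 6 Sox10-high libraries kept 1 MT control, replicate 4. That fit cannot decide whether a member passes, so only its log2 fold changes are given. They were 1.72 for Eng, 1.55 for Cdh5, 1.33 for Kdr, 1.27 for Emcn and 1.19 for Tie1, but 0.69 for Pecam1, 0.41 for Cldn5 and 0.51 for Vwf. Control replicate 4 itself lay below every MT poly I:C library for 8 of the members, with Flt1 and Vwf the exceptions. Whether tumour state takes part in the difference was not tested beyond these values.

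**Figure D2:**
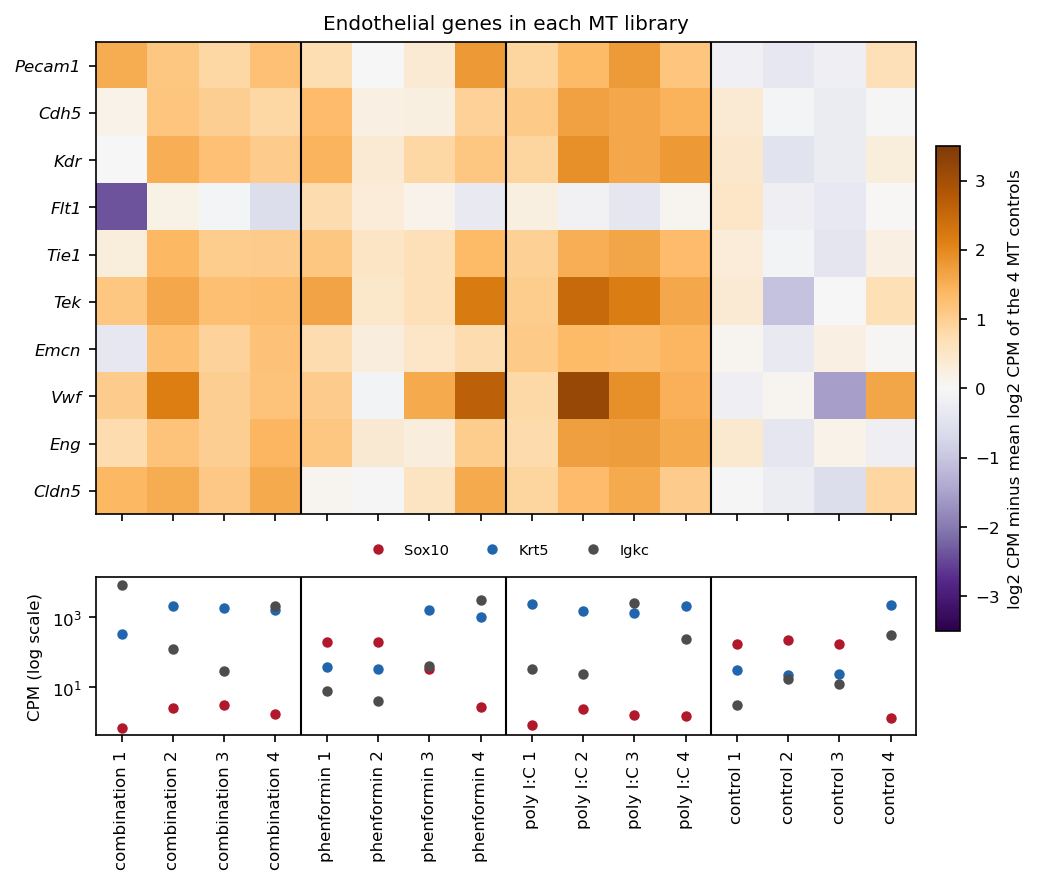
Upper panel: log2 CPM of each endothelial gene in the 16 MT libraries, minus the mean log2 CPM of the 4 MT controls (colour scale), with combination, phenformin, poly I:C and control libraries from left to right. Lower panel: Sox10, Krt5 and Igkc in the same libraries (CPM, log scale); the 3 Sox10-high controls and control replicate 4 share low values of Cdh5, Emcn and Eng, while Pecam1, Cldn5 and Vwf are higher in control replicate 4.

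Other vascular genes were called in the same comparison. Results of these lists, and of the lists of other cell types below, were taken with all MT libraries kept. They were not examined without the Sox10-high libraries. Of 26 other pan-endothelial genes, 17 were higher and 0 lower with poly I:C in MT (edgeR), with a median log2 fold change of 1.13. Eltd1, an adhesion receptor of sprouting vessels also named Adgrl4, reached 32.7 ± 6.58 CPM in poly I:C, against 10.6 ± 2.71 CPM in control (adjusted p = 0.00230). Cd34, a sialomucin of capillaries and progenitors, reached 64.9 ± 10.3 CPM in poly I:C, against 28.1 ± 4.80 CPM in control (adjusted p = 0.00349), and Erg, the ETS factor of endothelium, 12.9 ± 2.74 CPM in poly I:C, against 4.67 ± 1.01 CPM in control (adjusted p = 0.00478; SD, n = 4 each). Of 10 adhesion molecules and inflammatory endothelial genes, 4 were higher: the leukocyte adhesion molecules Vcam1 (222 ± 47.6 CPM in poly I:C, against 50.4 ± 17.7 CPM in control, adjusted p = 0.00288) and Icam1 (144 ± 18.5 CPM in poly I:C, against 40.8 ± 30.8 CPM in control, adjusted p = 0.0167), and the selectins Sele and Selp (adjusted p = 0.0371 and 0.0421). Of 12 pericyte genes, Pdgfrb and Mcam were higher and 10 were not called, and of 7 lymphatic endothelial genes, Flt4, the VEGF-C receptor, and Pdpn, which fibroblasts also express, were higher.

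Among 20 genes of angiogenic ligands and tip cells, 5 were higher and 3 lower with poly I:C in MT, with a median log2 fold change of 0.59. Nrp2, a VEGF co-receptor, reached 91.4 ± 20.5 CPM in poly I:C, against 30.5 ± 17.6 CPM in control (adjusted p = 0.00720), and the Notch ligand of tip cells Dll4 13.0 ± 0.893 CPM in poly I:C, against 6.03 ± 0.473 CPM in control (adjusted p = 0.0125; SD, n = 4 each). Angptl4 (log2 fold change 1.85 ± 0.40) and Hgf (2.25 ± 0.52) were also higher. Of 9 platelet and megakaryocyte genes, 4 were tested and 1, Gp1bb, was lower (-1.74 ± 0.48, adjusted p = 0.0221). Pf4 (1.41 ± 0.60) and Itga2b (1.08 ± 0.47), the platelet chemokine and integrin, did not pass.

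Genes of other cell types were also called in the same comparison, where 8.52% of all genes were called higher. All 9 macrophage genes were higher with poly I:C in MT, their summed level being 1226 to 1504 CPM in poly I:C libraries, against 379 to 496 CPM in controls. Csf1r, the CSF1 receptor, reached 190 ± 36.9 CPM in poly I:C, against 55.9 ± 6.26 CPM in control (adjusted p = 0.000898). Of 9 fibroblast genes 4 were higher, their sum being 1838 to 2263 CPM in poly I:C, against 742 to 1252 CPM in control. Of 8 adipocyte genes 1 was higher. The adipocyte sums overlapped, at 92.3 to 1402 CPM in poly I:C, against 8.61 to 176 CPM in control. Of 7 neutrophil genes 5 were higher, with a median log2 fold change of 2.16. S100a9, a calcium-binding protein abundant in neutrophils, reached 110 ± 55.1 CPM in poly I:C, against 10.3 ± 5.26 CPM in control (adjusted p = 0.00247), and Csf3r, the G-CSF receptor, 22.0 ± 5.82 CPM in poly I:C, against 5.60 ± 1.86 CPM in control (adjusted p = 0.00275; SD, n = 4 each). The summed level of the neutrophil list was 124 to 378 CPM in poly I:C, against 19.9 to 2465 CPM in control, where S100a8, named after its values were seen, measured 773 to 2436 CPM in the Sox10-high replicates 1, 2 and 3 and 4.15 CPM in replicate 4. Without S100a8 the sum was 83.7 to 230 CPM in poly I:C, against 15.8 to 29.6 CPM in control. Of the lymphocyte and plasma cell, epithelial and skeletal muscle lists, of which 7, 7 and 3 genes were tested, 0 genes were called by edgeR, and 0 had an unadjusted p under 0.05. No gene of the macrophage, fibroblast, adipocyte or neutrophil lists was at 0 throughout a group. The part of these cells in the change of the endothelial genes was not tested.

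**Figure D3:**
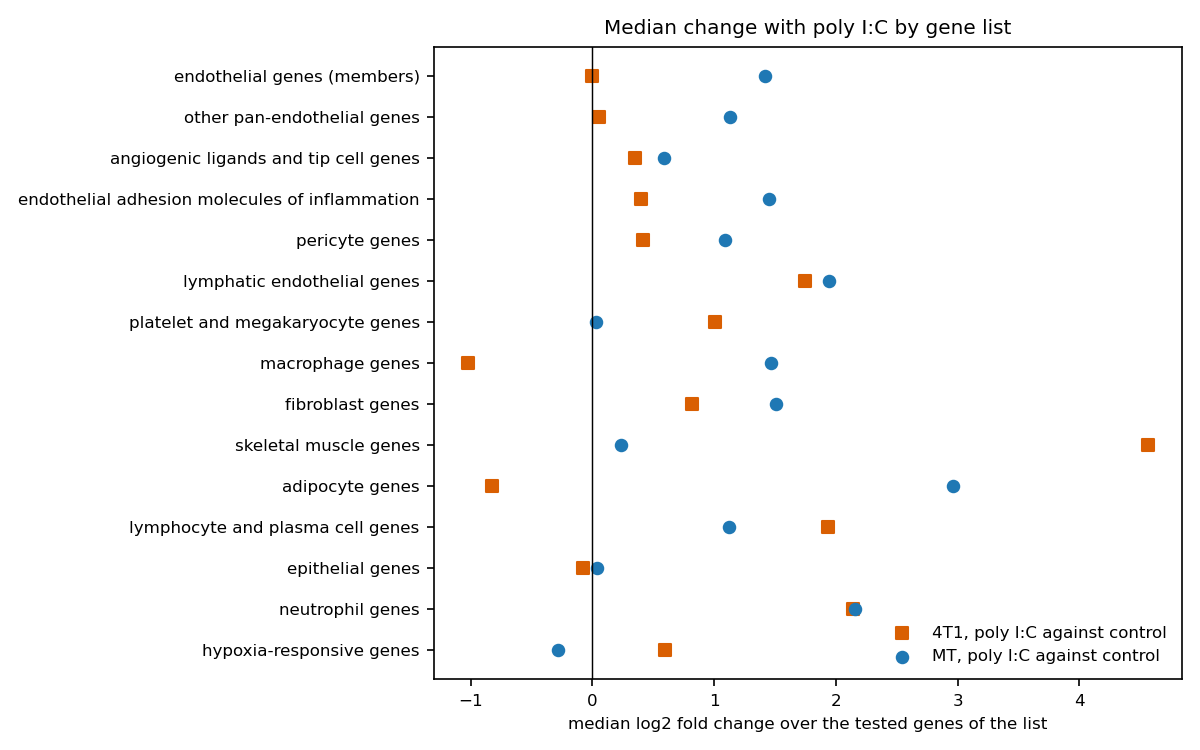
Median log2 fold change with poly I:C against control over the tested genes of each list (horizontal axis), in 4T1 (squares) and MT (circles). The endothelial members have medians of -0.01 in 4T1 and 1.42 in MT, and macrophage genes are on opposite sides of 0 in the models, at -1.02 in 4T1 and 1.47 in MT.

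In 4T1 tumours, poly I:C left the endothelial genes without a called change. By edgeR 0 of 10 passed in either direction, against 6.32% of 17445 genes, with 2 higher at an unadjusted p under 0.05 (12% of all genes), 0 called by DESeq2 and 2 called higher by limma voom (8.12% of all genes). The members' median log2 fold change was -0.01, and no member separated the groups. The VEGF receptors had the highest log2 fold changes of the members: Kdr measured 51.8, 73.4, 64.5 and 40.2 CPM in 4T1 poly I:C, against 51.2, 33.1, 41.8 and 35.8 CPM in 4T1 control (log2 fold change 0.53 ± 0.21, adjusted p = 0.143). Flt1 measured 130, 148, 132 and 97.6 CPM in 4T1 poly I:C, against 110, 86.5, 79.2 and 81.8 CPM in 4T1 control (0.52 ± 0.21, adjusted p = 0.135). Cdh5, at 118.6 ± 22.1 CPM in poly I:C and 119.6 ± 23.9 CPM in control (SD, n = 4 each), differed by less than its spread.

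Among other vascular lists in 4T1 with poly I:C, 0 of 26 pan-endothelial genes were called by edgeR, with 2 higher and 1 lower at an unadjusted p under 0.05. Of the pericyte genes Myh11, a smooth muscle myosin, was higher at 12.5 ± 2.40 CPM in poly I:C, against 5.99 ± 1.60 CPM in control (adjusted p = 0.0292), while Rgs5, a pericyte signalling regulator, was lower at 44.8 ± 14.0 CPM in poly I:C, against 86.6 ± 22.8 CPM in control (adjusted p = 0.0402). The co-receptor Nrp1 fell to 115 ± 30.2 CPM in poly I:C, against 227 ± 29.6 CPM in control (adjusted p = 0.0141), and Adm, the vasodilator adrenomedullin, rose to 45.0 ± 22.2 CPM in poly I:C, against 16.6 ± 2.65 CPM in control (adjusted p = 0.0398). Pdpn and Reln of the lymphatic list were higher, 5 of 9 macrophage genes were lower, and 2 of 7 neutrophil genes were higher.

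The difference between the models in the response to poly I:C was tested directly, as the 4T1 change minus the MT change in 1 fit of all 31 libraries and 18956 genes. It was negative and called for 6 members, against 5.42% of all genes called lower. These were Eng (-1.63 ± 0.29, adjusted p = 0.000720), Tie1 (-1.56 ± 0.35, 0.00527), Cdh5 (-1.46 ± 0.37, 0.0126), Tek (-1.72 ± 0.50, 0.0277), Pecam1 (-1.31 ± 0.41, 0.0400) and Cldn5 (-1.53 ± 0.50, 0.0483). Vwf (-2.13), Emcn (-0.90) and Kdr (-1.03) had values of the same sign that did not pass, and Flt1 had 0.58 (adjusted p = 0.453). Of the other pan-endothelial genes 7 of 26 were called lower, led by Cd34 and Eltd1, and all 9 macrophage genes were.

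Eng, Tie1 and Cdh5 passed this test with any 1 library left out, and also without the 5 4T1 libraries with Acta1 above 10 CPM (skeletal muscle actin) or the 3 with Igkc above 100 CPM (antibody light chain), where the count fell to 3 each time. All 5 Acta1-high libraries came from treated arms, and Acta1 was 0.478 to 0.764 CPM in the 4T1 controls. The Cldn5 call was lost in 23 of the 31 fits that leave out 1 library (adjusted p up to 0.105), the Pecam1 call in 11 (up to 0.0956) and the Tek call in 6 (up to 0.0760). Leaving out 4T1 control replicate 3, 4T1 poly I:C replicate 4, MT control replicate 2 or 3, or MT poly I:C replicate 2 or 3 also gave 3. Without the Sox10-high MT libraries, which leaves 1 MT control, Eng was -1.88, Cdh5 -1.57 and Tie1 -1.41. That fit cannot decide whether a member passes.

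**Figure D4:**
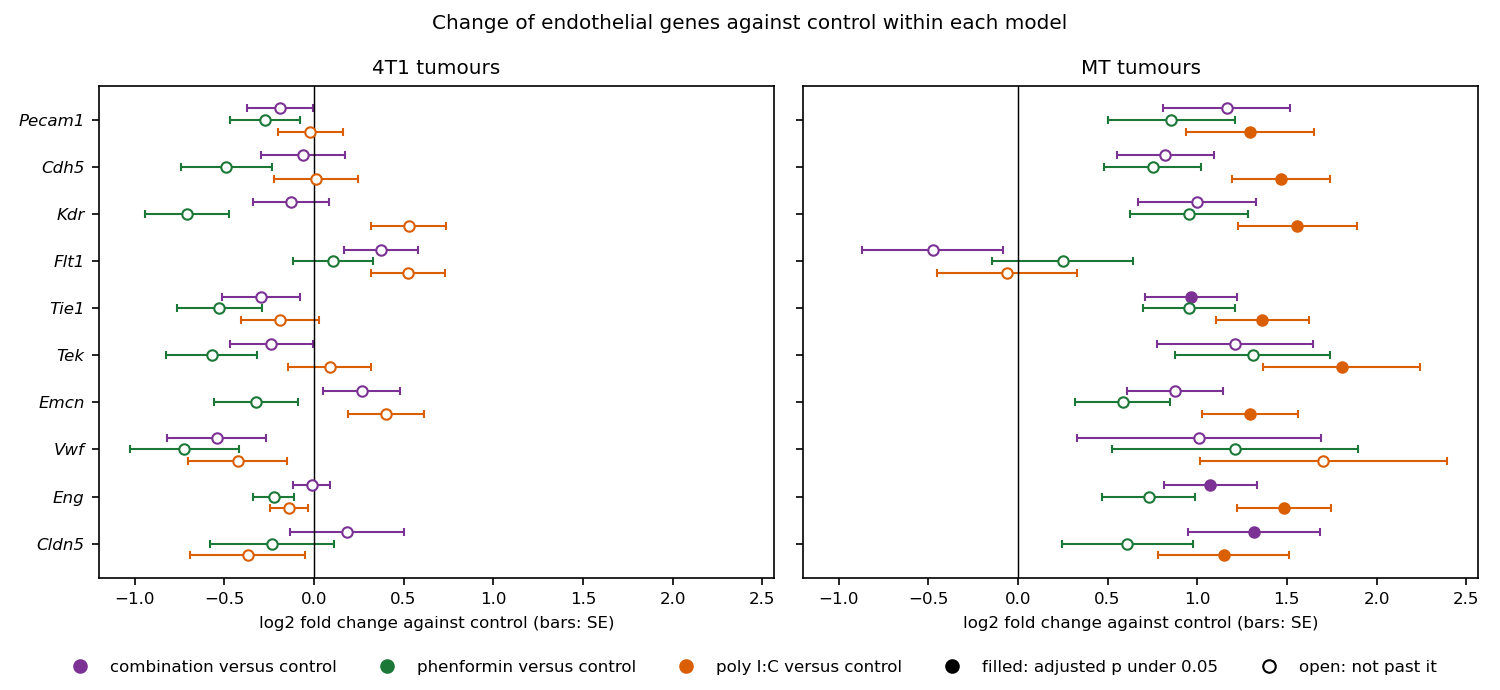
Log2 fold change against control of each endothelial gene (points, bars SE) for combination, phenformin and poly I:C, in 4T1 (left) and MT (right); filled points passed the adjusted p of 0.05. In MT, 8 poly I:C points and 3 combination points are filled, and in 4T1 none is.

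The combination gave a smaller set of calls in MT. Eng, Tie1 and Cldn5 were higher than in control, 3 of 10 members against 2.81% of all genes called higher, and the median log2 fold change of the members was 1.0. Eng measured 35.9, 48.9, 42.6 and 57.0 CPM in MT combination, all above the controls (1.07 ± 0.26, adjusted p = 0.0361). Cldn5 measured 10.4, 11.6, 8.71 and 11.9 CPM in MT combination, again above all controls (1.32 ± 0.37, adjusted p = 0.0490). Tie1 measured 11.2, 23.7, 18.5 and 18.8 CPM in MT combination, where replicate 1 overlapped the controls (0.97 ± 0.26, adjusted p = 0.0442). Pecam1 and Tek were also above all controls but did not pass (adjusted p = 0.0614 and 0.0930), so that 4 members separated the groups, against 5.89% of all genes.

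Combination replicate 1 stood apart from its group, with 16.8 CPM of Flt1 against 58.2 to 99.2 CPM in the other combination libraries, 30.8 CPM of Cdh5, 11.3 CPM of Emcn and 21.8 CPM of Kdr, while its Pecam1, at 167 CPM, was the highest of the group. Its Igkc was 8738 CPM, and the part of lymphoid content in these values was not tested. The number of members called depended on the libraries and the tool. DESeq2 called 8 members and 7.8% of all genes higher, and limma voom 9 members and 26.7% of all genes. edgeR called 0 when combination replicate 2, 3 or 4, control replicate 1, 2 or 3 or poly I:C replicate 4 was left out, 1 without phenformin replicate 1 or poly I:C replicate 1, 2 or 3, 5 without phenformin replicate 4, and 7 without control replicate 4. The count was also 0 with no filter on low counts or with only the groups compared. Without the Sox10-high libraries, which leaves 1 MT control, Eng was 1.32, and that fit cannot decide whether a member passes. In the same comparison 7 of 9 macrophage genes were higher, their sum being 591 to 1434 CPM in MT combination, against 379 to 496 CPM in MT control. Of the neutrophil genes 6 of 7 were higher, with a median log2 fold change of 2.20, and their sum without S100a8 was 109 to 400 CPM in MT combination, against 15.8 to 29.6 CPM in MT control. The part of these cells in the result was not tested.

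No member differed between the combination and poly I:C in MT by edgeR (0 of 10, against 0% of all genes; 1 lower at p under 0.05 before adjustment, against 2.39%; DESeq2 and limma voom called 0), although 9 of 10 had lower values in the combination, with a median of -0.42. The combination and phenformin in MT also differed in 0 of 10 members by edgeR (against 0.106% of all genes), with 0 at an unadjusted p under 0.05 (13.2% of all genes), 0 by DESeq2 and 3 higher by limma voom (15.7% of all genes). Phenformin against control in MT gave 0 calls of 10 by edgeR, against 0% of all genes, with 7 higher at an unadjusted p under 0.05 (3.09% of all genes) and 0 by each of the alternative tools, DESeq2 and limma voom. All 10 log2 fold changes were positive there, with a median of 0.80, and the phenformin libraries were split. For Cdh5, MT phenformin replicates 1 and 4 had 70.2 and 53.8 CPM and replicates 2 and 3 had 32.1 and 32.4 CPM, against 23.2 to 36.2 CPM in MT control. Tie1 and Emcn separated the groups, 2 members against 0.935% of all genes. Tie1 measured 20.01, 13.3, 14.4 and 23.2 CPM in MT phenformin, against 6.76 to 11.3 CPM in MT control (0.95 ± 0.26, adjusted p = 0.791), and Emcn 17.3 to 24.5 CPM in MT phenformin, against 11.6 to 16.7 CPM in MT control (0.58 ± 0.27, adjusted p = 0.813).

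The interaction in MT, the effect of phenformin in the presence of poly I:C minus its effect without it, was negative for all 10 members, with a median of -1.25. It was called for 0 of 10 by edgeR (against 0% of all genes), with 6 lower at an unadjusted p under 0.05 (4.44% of all genes) and 0 by DESeq2 or limma voom. Tie1 had -1.35 ± 0.36 (adjusted p = 0.385) and Cdh5 -1.40 ± 0.38 (adjusted p = 0.385). The combination, phenformin and poly I:C comparisons with control share the same 4 control libraries, as does the interaction. With 1 library left out the members' median interaction ran from -1.39 to -1.09, while that of Cldn5 was 0.05 without phenformin replicate 4. The Sox10-high libraries all lie in the control and phenformin arms, and the part of that state in the interaction was not tested.

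In 4T1 no member was called with phenformin or with the combination. Phenformin against control gave 0 of 10 by edgeR (against 0% of all genes), with 4 lower at an unadjusted p under 0.05 (5.81% of all genes) and 0 by DESeq2 or limma voom. Kdr measured 26.7, 23.5 and 24.3 CPM in 4T1 phenformin, below all 4 controls at 33.1 to 51.2 CPM (log2 fold change -0.71 ± 0.23, adjusted p = 0.319). Tek, Tie1 and Emcn were likewise below all controls, making 4 of 10 members, against 6.46% of all genes. The combination against control gave 0 of 10 by edgeR (against 0% of all genes; 0 at p under 0.05 before adjustment, against 11.9%; DESeq2 and limma voom called 0), and the combination against phenformin 0 of 10 (against 0% of all genes; 2 higher at p under 0.05 before adjustment, against 6.72%; DESeq2 and limma voom called 0).

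For Kdr the call in 4T1 depended on the tool. It measured 25.2, 31.9, 48.9 and 40.7 CPM in the combination, against 51.8, 73.4, 64.5 and 40.2 CPM in poly I:C, and the groups overlapped. Combination minus poly I:C was -0.66 ± 0.21 on the log2 scale and did not pass in edgeR (adjusted p = 0.126, 0 of 10 members against 0.246% of all genes, 1 lower at an unadjusted p under 0.05 against 9.53%), whereas DESeq2 (2.66% of all genes lower) and limma voom (3.86%) each called it lower, as did edgeR without poly I:C replicate 4 (adjusted p = 0.0331). The 4T1 interaction was called for 0 of 10 by edgeR (against 0% of all genes; 1 higher at p under 0.05 before adjustment, against 4.7%; DESeq2 and limma voom called 0).

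Differences between the models in the other responses were smaller in number. For the combination the 4T1 change minus the MT change was called lower for Eng (-1.09 ± 0.28, adjusted p = 0.0302) and Tie1 (-1.27 ± 0.35, adjusted p = 0.0369), 2 of 10 members against 2.29% of all genes. This count was 0 without 4T1 combination replicate 1 or 2, 4T1 control replicate 3, MT combination replicate 4 or MT control replicate 2, 1 without 4T1 combination replicate 4, 4T1 control replicate 1 or 4, MT combination replicate 2 or MT control replicate 1 or 3, 4 without MT phenformin replicate 4 and 7 without MT control replicate 4. It was also 0 without the 4T1 libraries high in Acta1, without those high in Igkc, and with no filter on low counts, and 1 without the MT libraries with Igkc above 1000 CPM. No count is given without the Sox10-high MT libraries, which leaves 1 MT control. DESeq2 called 4 members lower, against 5.05% of all genes, and limma voom 9, against 20% of all genes. In this response 3 of 7 neutrophil genes were called lower too. For phenformin 0 of 10 members were called by edgeR (against 0% of all genes), although all 10 values were negative, with 8 lower at an unadjusted p under 0.05 (3.7% of all genes) and 0 by DESeq2 or limma voom.

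The models were also compared in their control tumours, where line, strain and host differ together and cannot be told apart. Of the 10 members, 9 were higher in 4T1 than in MT controls, against 26.7% of 18956 genes called higher, and the median log2 difference was 1.51. Eng measured 136, 125, 145 and 139 CPM in 4T1 controls, against 28.8, 16.4, 23.8 and 18.8 CPM in MT controls, a difference of 2.63 ± 0.21 (adjusted p = 3.65e-10). Cdh5 measured 143, 103, 137 and 95.8 CPM in 4T1 controls, against 36.2, 26.7, 23.2 and 26.9 CPM in MT controls (2.08 ± 0.27, adjusted p = 6.71e-07). All 4T1 controls lay above all MT controls for both genes.

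The remaining called members were Tek (2.01 ± 0.37), Cldn5 (1.98 ± 0.37), Tie1 (1.61 ± 0.25), Pecam1 (1.41 ± 0.30), Emcn (1.36 ± 0.25), Vwf (1.32 ± 0.54) and Kdr (0.83 ± 0.29), with adjusted p from 8.01e-06 for Tie1 to 0.0436 for Vwf. The libraries did not overlap for 8 members, with Vwf and Flt1 the exceptions, against 25.6% of all genes higher in 4T1. Flt1 measured 89.4 ± 14.0 CPM in 4T1 controls and 90.1 ± 24.0 CPM in MT controls (SD, n = 4 each), a difference of -0.01 ± 0.33 (adjusted p = 0.978). The Kdr call was lost without 4T1 control replicate 1 or MT control replicate 2 or 3 (adjusted p up to 0.0703). Vwf was lost in 8 of the 31 fits that leave out 1 library, namely those without 4T1 control 1, 3 or 4, 4T1 poly I:C 2, MT combination 1 or MT control 1, 2 or 3 (adjusted p up to 0.133).

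Without the Sox10-high libraries, MT control replicate 4 is the only MT control, and that fit cannot decide whether a member passes. The difference was then 2.86 for Eng, 2.16 for Cdh5, 1.45 for Tek, 1.43 for Tie1 and 1.33 for Emcn, and 0.0097 for Flt1. Averaged over the 4 arms, 7 members were higher in 4T1, against 35.3% of all genes, with Eng at 1.72 ± 0.10 (adjusted p = 1.16e-13), Cdh5 at 1.19 ± 0.13 and Cldn5 at 1.11 ± 0.18. Flt1 (0.31), Kdr (-0.12) and Vwf (-0.07) did not pass. Without the Sox10-high libraries the average was higher in 4T1 for Eng, Cdh5, Cldn5 and Emcn, and lower in 4T1 for Vwf (-0.66). In that fit MT control replicate 4 and MT phenformin replicate 4 stand alone in their groups, so calls are not given.

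Other vascular genes also differed between control tumours. Of the 26 pan-endothelial genes, 20 were higher and 1 lower in 4T1, with a median of 1.19. Nos3, the endothelial nitric oxide synthase, measured 12.03 ± 1.33 CPM in 4T1 controls, against 2.12 ± 0.745 CPM in MT controls (adjusted p = 5.02e-07). Of the angiogenic genes 11 of 20 were higher and 3 lower in 4T1, led by Nrp2 (200 ± 28.3 CPM in 4T1, against 30.5 ± 17.6 CPM in MT, adjusted p = 2.76e-08), and of the pericyte genes 5 of 12 were higher, led by Mcam (123 ± 22.2 CPM in 4T1, against 26.7 ± 3.67 CPM in MT, adjusted p = 6.49e-07). All 9 macrophage genes and 8 of 9 fibroblast genes were higher in 4T1 too, and their part in the difference was not tested.

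Relative levels within the set also differed between models. The ratio of Kdr to Cdh5 was 0.246 to 0.581 in the 4T1 libraries and 0.588 to 1.20 in the MT libraries, with no overlap between them. Tie1 to Cdh5 was 0.171 to 0.295 in 4T1 and 0.285 to 0.445 in MT, ranges that overlapped between 0.285 and 0.295. Eng to Cdh5 had a median of 1.17 in 4T1 and 0.795 in MT, with overlapping ranges. Ratios also differed by arm within MT, where Flt1 to Cdh5 was 2.91 to 3.43 in control and 0.792 to 1.76 in poly I:C. No test was made of these ratios.

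After the group means were subtracted, the members varied together across the 31 libraries. The median Pearson correlation over the 45 pairs of members was 0.57, the highest pair being Cdh5 and Tie1 at 0.88 and the lowest Pecam1 and Flt1 at -0.26. Tie1 was the member most like the mean of the other 9 (r = 0.92) and Flt1 the least (r = 0.33). Among 14358 other genes whose log2 CPM averaged 1 or more, those most like the mean of the members were Esam (0.90), an adhesion molecule of endothelial junctions, Rasip1 (0.88), which is needed for vessel lumens, Mmrn2 (0.87), an endothelial matrix protein, Hspa12b (0.86) and Cd34 (0.85), followed by Nid1, Sox17, Ldb2, Ptprm and Gpr116, down to 0.82. Of these 10 genes, 5 are on the list of other pan-endothelial genes. These correlations are descriptions over 31 libraries that share depth and tissue make-up.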

How the data were processed

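Per the submitters' processing notes, reads were trimmed with Trimmomatic 0.32.48, aligned with STAR 2.3.0 and counted with featureCounts 1.4.4, with mm10 and GRCm38 named as builds. The deposited values are raw counts per gene, whole numbers with no normalization; the annotation release and the strand setting are not given in the sources used here. Library preparation was strand-specific with poly(A) RNA, per the labels' protocols. The table held 39017 genes in 31 libraries, 8371 of them at 0 throughout; 37693 identifiers matched GENCODE M21.

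Counts were tested with edgeR 4.0.16 (quasi-likelihood F-test, filterByExpr with a minimum count of 10, TMM scaling, Benjamini-Hochberg threshold of 0.05) in R 4.3.3. Each model was fitted alone (17445 genes in 4T1, 17857 in MT), and comparisons between models came from 1 fit of all 31 libraries (18956 genes). Standard errors are the log2 fold change divided by the square root of F. CPM used the TMM factors of the 31 libraries. DESeq2 1.42.0 and limma 3.58.1 (voom with quality weights) were alternatives, with other scalings, filters, a replicate block and fits without libraries; the fit without MT libraries with Igkc above 1000 CPM was added after seeing the data. The edgeR fit was run on simulated counts that had the same variability for every gene and no Sox10-high state. That run therefore does not cover the split seen among the MT libraries. Likeness used log2 CPM with a prior count of 2. No replicate pair agreed within sampling noise: the chi-square per degree of freedom was at least 9.53.

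All 10 members are described; of the 14 other gene lists, up to 4 genes of a vascular list and up to 3 of another list were named by smallest p. Members and lists were chosen with earlier results of these data known. The same holds for the marker genes Sox10, Krt5, Igkc, Acta1 and H2-Ea-ps.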

Additional observations from a re-analysis of the deposited data

Results flagged for a closer look

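In 2 groups of 4 libraries, 1 library stood far from the others for an endothelial gene. Pecam1 was 90.8 CPM in MT control replicate 4, against 44.2 to 51.9 CPM in the other MT controls, and Vwf was 13.8 CPM in MT combination replicate 2, against 6.23 to 7.12 CPM in the other MT combination libraries. Dixon's test was applied to 70 sets of 4 values, of which chance flags about 1 in 20, so the 2 flags are no more than chance would give.

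The response to poly I:C differed between the models, as the 4T1 change minus the MT change in edgeR, for Eng (-1.63, adjusted p = 0.000720), Tie1 (-1.56, 0.00527), Cdh5 (-1.46, 0.0126), Tek (-1.72, 0.0277), Pecam1 (-1.31, 0.0400) and Cldn5 (-1.53, 0.0483). The response to the combination differed for Eng (-1.09, adjusted p = 0.0302) and Tie1 (-1.27, 0.0369).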

How the results depend on the processing

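The 8 endothelial genes called higher with poly I:C in MT (8.52% of all genes) were 9 by DESeq2 (12.2%) and by limma voom (30.5%). They were 7 with no filter, 8 under the other scalings and filters, and 6 to 9 with 1 library left out. Without the Sox10-high MT libraries 1 MT control is left, so no count is given for that fit in any comparison with MT control. The 3 called with the combination in MT (2.81% of all genes) were 8 by DESeq2 (7.8%) and 9 by limma voom (26.7%). The count was 0 with no filter and 0 with only the groups compared. It was 1 with the replicate block (Cldn5, with Eng at an adjusted p of 0.0602 and Tie1 at 0.0656). It was 1 without the MT libraries with Igkc above 1000 CPM and 0 to 7 with 1 library left out. Limma voom called 2 members higher with poly I:C in 4T1 (8.12% of all genes) and 3 higher in the combination against phenformin in MT (15.7%), where edgeR called 0. For the combination against poly I:C in 4T1, DESeq2 (2.66%) and limma voom (3.86%) each called 1 lower, and leaving out 1 library gave 0 to 1. Here and below, the share of all genes is not given for the settings printed without one.

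Between the models, the 9 members higher in 4T1 controls were 5 without the Sox10-high libraries and 7 to 9 with 1 library left out, and the 7 in the average of arms were 4, with 1 lower, and 7 to 8. The 6 that differed in the response to poly I:C (5.42% of all genes) were 3 without the 4T1 libraries with Acta1 above 10 CPM. They were 3 without those with Igkc above 100 CPM and 3 to 7 with 1 library left out. The 2 that differed in the response to the combination (2.29% of all genes) were 4 by DESeq2 (5.05%) and 9 by limma voom (20%). They were 0 with no filter, 0 without the 4T1 Acta1 or Igkc sets, 1 without MT libraries with Igkc above 1000 CPM and 0 to 7 with 1 library left out.

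No value that changed sign had passed the test, nor passed after the change. Flt1 with phenformin in 4T1 became -0.096 without the Acta1 set and ranged from -0.089 to 0.33 with 1 library left out. Flt1 with poly I:C in MT was 0.0037 by limma voom, 0.036 with library totals, 0.047 without Igkc above 1000 CPM, and -0.17 to 0.13 with 1 library left out. In the other MT arms, Flt1 was -0.28 with phenformin without the Sox10 set and 0.037 with the combination without Igkc above 1000 CPM, and Vwf with the combination was -0.18 without the Sox10 set. The MT interaction of Cldn5 was 0.10 without Igkc above 1000 CPM and -0.81 to 0.046 with 1 library left out. Between controls, Flt1 was 0.031 without the 4T1 Igkc set, 0.0097 without the Sox10 set and -0.13 to 0.18 with 1 library left out. The average difference of Vwf was 0.36 by limma voom, 0.028 with the replicate block, 0.0028 without the 4T1 Igkc set, and -0.17 to 0.13 with 1 library left out. The causes were not tested.

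Whether replicate numbers pair the libraries is not settled by these values. The correlations of same-numbered deviations ran from -0.51 to 0.20 in 4T1 (median -0.06) and from -0.79 to 0.77 in MT (median 0.10). Those of different-numbered deviations ran from -0.38 to 0.67 in 4T1 (median 0.05) and from -0.85 to 0.78 in MT (median 0.002). With the replicate block the other counts were 8 for poly I:C in MT, 9 between controls, 7 for the average and 6 and 2 for the responses. Groups of 3 or 4 libraries, the title and tag conflict, the tie between Sox10 level and arm in MT and the absence of Acta1-high controls in 4T1 limit these comparisons. Each member had at least 16 counts in every library. The lowest were Tek in MT control replicate 2 and Vwf in MT control replicate 3, at 16 counts each. The part of depth in the results was not tested.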

Other observations

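Of 12 hypoxia-responsive genes, 6 were higher and 1 lower with poly I:C in 4T1 by edgeR, against 6.32% of all genes called in either direction. The 3 with the smallest p were Egln1 at 234 ± 33.8 CPM in poly I:C, against 159 ± 12.7 CPM in control (adjusted p = 0.00960), Plod2 at 176 ± 38.6 CPM in poly I:C, against 93.1 ± 14.2 CPM in control (0.0148) and Kdm3a at 124 ± 13.6 CPM in poly I:C, against 85.6 ± 8.28 CPM in control (0.0149; SD, n = 4 each). In MT 1 of the 12, Pfkfb3, was higher with poly I:C, at 118 ± 11.7 CPM, against 59.5 ± 21.5 CPM in control (adjusted p = 0.0113). This count is near the 8.52% of all genes called higher there. Of the difference between the models in this response, 1 of the 12 was called, and it was positive. The share of all genes called positive in that comparison is not given.

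The ratio of Pecam1 to Cdh5 was 5.42, 3.70, 2.76 and 2.32 in the 4 MT libraries with Igkc above 1000 CPM, which are combination 1, phenformin 4, combination 4 and poly I:C 3. It was 3.38 in MT control replicate 4, with Igkc at 307 CPM, and 1.34 to 2.28 in the other MT libraries. In 4T1 the highest ratios, 2.09 and 1.86, were in phenformin replicate 2 and poly I:C replicate 1, whose Igkc was 631 and 685 CPM, and the others ran from 1.06 to 1.48. The libraries were picked after their values were seen, and no test was made.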
